A study of Homo sapiens with 21 samples.

Results

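The collagen and laminin chains are the 56 genes whose symbols have the form of a collagen alpha chain (COL, a type number, A, a chain number) or of a laminin alpha, beta or gamma chain (LAMA, LAMB or LAMC and a number), of 20111 genes listed. They comprised 44 collagen and 12 laminin genes, here described as 20 chains of basement membranes, 11 fibrillar collagen chains and 25 other collagen chains. Polyadenylated RNA had been sequenced in 21 libraries of PC-9, an EGFR-mutant non-small cell lung cancer (NSCLC) line of epithelial origin. The first experiment held 9 libraries of untreated cells taken 24 h after seeding, 3 each of the parental line and of 2 populations, EGFR-low and EGFR-high, obtained from it by 6 rounds of sorting on EGFR staining. The second held 12 libraries, 3 each of EGFR-low and EGFR-high cells given DMSO or 1 µM vorinostat, an HDAC inhibitor, for 72 h. All groups are labelled as the same line, with a deletion in EGFR whose end is numbered differently from sample to sample. Each sorted population is a pool kept by repeated sorting rather than a clone.

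Laminins are trimers of an alpha, a beta and a gamma chain that epithelial cells secrete and polymerise on their basal face, and type IV collagen forms the second network of the basement membrane, with nidogen and perlecan between them. LAMA3 and LAMB3 belong to the laminin that anchors hemidesmosomes, whereas LAMA5, LAMB1 and LAMC1 make the common epithelial laminin and LAMA4 is best known from endothelial and mesenchymal basement membranes. Fibrillar collagens such as types I, III and V are mostly made by fibroblasts and build the interstitial matrix, and type VI collagen forms beaded filaments beside it.

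The unit was taken to be FPKM, in which a gene's fragments are divided by the length of its transcript and by the size of the library, so that levels of different chains can be set side by side. The fragments behind a value are not known, and a value of 0 is given as listed at 0. Each experiment was tested with limma on log2(FPKM + 1) over the genes that reached 1 FPKM in 3 or more of its libraries, and a gene was called at an adjusted p under 0.05 over all genes tested. Fold changes are on that log2 scale, which understates the change of chains with low levels. A permutation test of 3 libraries against 3 cannot go below p = 0.1, and the labels do not say which libraries came from separate cultures, although the study describes its replicates as independent experiments. The p-values measure the spread between these libraries.

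EGFR stood at 26.5 to 60.6 FPKM in untreated EGFR-low libraries and at 161 to 269 FPKM in EGFR-high ones, and at 16.1 to 43.3 against 83.3 to 207 FPKM in the second experiment. The 6 epithelial markers summed to between 1218 and 3506 FPKM in a library, while all 8 fibroblast markers were under 1 FPKM in each group and summed to at most 0.0841 FPKM. The 4 leukocyte markers summed to between 14.6 and 39.4 FPKM, with CD68 the highest in every group. Of these 4, 2 stayed under 1 FPKM in untreated EGFR-low and both DMSO groups, and 3 in the other groups. The libraries labelled EGFR-low in the second experiment stood apart from the untreated EGFR-low libraries. NKX2-1, a transcription factor of the lung lineage, was at 24.1 to 51.1 FPKM in these 6 libraries and at no more than 0.069 FPKM in every untreated library. Of 7141 genes at 5 FPKM or more in untreated EGFR-low cells, 132 were under 0.5 FPKM in the DMSO libraries (medians of 3), among them COL4A5 and LAMA4, against 0 of 7379 genes in EGFR-high cells. In the other direction, 173 of 8506 genes at 5 FPKM or more in EGFR-low DMSO had untreated medians under 0.5 FPKM. For EGFR-high cells these were 2 of 8098 genes. Whether both experiments used the same EGFR-low population was not tested. Within their own groups, EGFR-low DMSO replicate 1, EGFR-high DMSO replicate 3 (NKX2-1 at 11.1 FPKM) and EGFR-high vorinostat replicate 1 (931 genes over 2-fold from its mates) also stood apart. Calls between EGFR-low and EGFR-high cells of that experiment are given with and without these 3 libraries. They were picked after the data were seen, because they differ from their mates, so leaving them out tends to narrow the spread. Each DMSO group then lacks 1 of its 3 libraries. Over all genes the calls rise from 6334 to 7179 with DMSO and from 7222 to 7527 with vorinostat. The smaller p-values of these fits are therefore not further support.

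Laminin chains made up most of the RNA of this gene group in PC-9 cells. Summed over the chains, group means of laminin ran from 183 FPKM in EGFR-low DMSO to 369 FPKM in untreated EGFR-low cells, and those of collagen from 42.1 FPKM in EGFR-low vorinostat to 126 FPKM in EGFR-high vorinostat. LAMA3, LAMC1, LAMB1, LAMA4, LAMB3, COL6A1 and COL6A2 were among the highest members in each untreated group, in an order that changed between groups.

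Of the 56 chains, 28 never reached 1 FPKM in any library and 17 never reached 0.1 FPKM, while 19 passed the filter in the untreated and 21 in the second experiment, 18 of them in both. Of the fibrillar chains, 8 of 11 stayed under 1 FPKM everywhere. COL1A1, the main chain of type I collagen, ran from 1.02 to 5.87 FPKM over the 21 libraries, whereas its partner COL1A2 was listed at 0 in 17 of them and reached 0.408 FPKM at most. COL3A1, the chain of type III collagen, was listed at 0 in 19 libraries and reached 0.00666 FPKM.

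**Figure D1:**
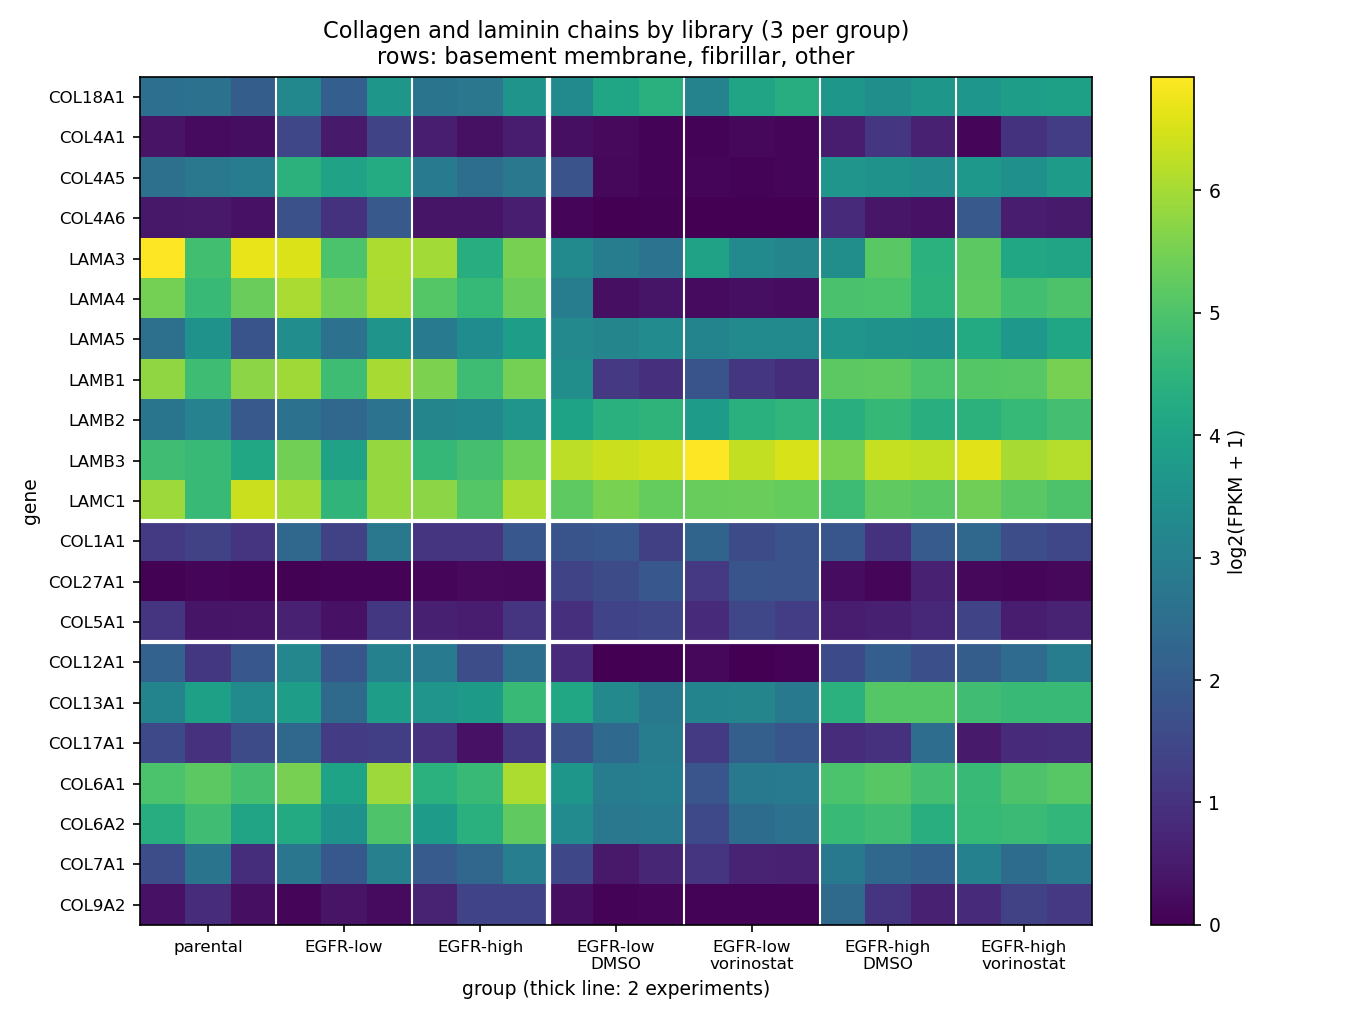
Heat map of log2(FPKM + 1) for 21 of the 22 chains that passed the filter in at least 1 experiment (rows, from top: basement membrane, fibrillar and other chains) in 21 libraries (columns, 3 per group, the thick line between the 2 experiments). COL4A5, LAMA4, LAMB1 and COL12A1 have lower values in the libraries labelled EGFR-low of the second experiment than in all other groups, and COL27A1 is the reverse.

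The makeup of the laminin chains differed between the groups of the second experiment more than between the untreated groups. Among the alpha chains, LAMA4 held 46.4% ± 7.86 (SD, n = 3) of the summed FPKM in untreated EGFR-low, 40.0% ± 6.42 in EGFR-high and 30.8% ± 7.42 in parental cells. In the second experiment LAMA4 held 46.5% ± 10.4 in EGFR-high DMSO and 10.5% ± 14.9 in EGFR-low DMSO, where the share ran from 1.51% to 27.7%. Among the beta chains, LAMB1 held 48.8% to 60.03% in the untreated groups and 28.6% ± 6.08 in EGFR-high DMSO, but 3.89% ± 5.00 in EGFR-low DMSO, where LAMB3 held 77.9% ± 2.48. LAMA1, LAMA2, LAMB4 and LAMC3 stayed at or under 0.222 FPKM in all 21 libraries, and the highest mean share among them was 0.689%, that of LAMA2 in EGFR-low DMSO.

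The first question was which chains distinguish untreated EGFR-low from EGFR-high cells. Of 19 chains tested, 2 were called, both higher in EGFR-low cells and both of type IV collagen, COL4A5 and COL4A6. Of all 11305 genes tested 3.81% were called in this comparison, 1.62% higher and 2.19% lower, and the median log2 fold change was 0.12 over the members and -0.03 over all genes. In bulk RNA, fewer cells that express a chain and less RNA per cell cannot be told apart. COL4A5 and COL4A6 encode the alpha 5 and alpha 6 chains, which assemble together in basement membranes of skin and smooth muscle, and lie head to head on chromosome X. In RefSeq (build GRCh38.p14) their first transcripts start 380 bases apart, COL4A5 at chrX:108439838 on the plus strand and COL4A6 at chrX:108439458 on the minus strand. COL4A6 had 2 starts among the RefSeq promoters, and the one nearest COL4A5 is used here. Which start these cells use was not tested. The 250 bases before each start are printed because the pair was called together; capitals mark each CCAAT or its reverse complement ATTGG and each GGGCGG or CCGCCC.

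COL4A5, chrX:108439588-108439837, plus strand: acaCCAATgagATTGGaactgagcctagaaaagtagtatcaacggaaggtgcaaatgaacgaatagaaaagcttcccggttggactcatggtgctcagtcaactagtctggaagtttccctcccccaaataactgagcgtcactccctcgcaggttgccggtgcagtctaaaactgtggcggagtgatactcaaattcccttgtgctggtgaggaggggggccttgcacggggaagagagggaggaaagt
COL4A6, chrX:108439459-108439708, minus strand: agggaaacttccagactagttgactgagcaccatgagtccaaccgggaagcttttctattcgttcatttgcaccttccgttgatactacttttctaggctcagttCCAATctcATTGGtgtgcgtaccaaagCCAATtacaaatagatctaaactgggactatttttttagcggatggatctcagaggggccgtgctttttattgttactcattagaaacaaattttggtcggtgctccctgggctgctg

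The windows share 121 bases, which hold the same pair of CCAAT boxes read from opposite strands, 2 matches in the COL4A5 and 3 in the COL4A6 window. A CCAAT box stood in 32.0% of the 35116 promoter windows of the same length in the table. Neither window held a GC box (GGGCGG), which 42.6% of all windows had, nor, on either strand, a match to the letters searched for a TATA box (TATAAA). The AP-1 (TGANTCA) and TEAD (GGAATG) letters had no match on either strand either. RefSeq promoters matched 41 of the 56 members.

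COL4A5 was at 20.8, 14.9 and 18.2 FPKM in untreated EGFR-low cells, at 6.17, 4.67 and 5.81 FPKM in EGFR-high cells and at 4.85, 5.84 and 6.59 FPKM in parental cells. Every EGFR-low library was above every other untreated library, with a mean 3.23-fold that of EGFR-high cells. The log2 fold change against EGFR-high was 1.53 (SE 0.23, adjusted p = 0.00392), and it stayed called in all 9 fits that left out a library. COL4A6 was lower throughout, at 2.30, 1.03 and 2.79 FPKM in EGFR-low, 0.323, 0.313 and 0.511 FPKM in EGFR-high and 0.369, 0.393 and 0.261 FPKM in parental cells. Its groups did not overlap either, with a log2 fold change of 1.09 (SE 0.23, adjusted p = 0.021). COL4A6 passed the filter through the EGFR-low libraries alone, and its call was lost in 5 of the 9 fits that left out a library (EGFR-low replicates 1 and 3 and each EGFR-high replicate). COL4A5 exceeded COL4A6 by 3.17 ± 0.53 log2 units (SD, n = 3) in EGFR-low, 3.56 ± 0.31 in EGFR-high and 3.73 ± 0.42 in parental cells.

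The other type IV chains stayed low, although COL4A1, COL4A2 and COL4A4 had their highest values in EGFR-low cells. COL4A1, the common alpha 1 chain, was at 1.79, 0.427 and 1.68 FPKM there, against 0.507, 0.251 and 0.455 FPKM in EGFR-high cells, so that the groups overlapped. Its head-to-head partner COL4A2 was at 0.609, 0.0675 and 1.03 FPKM in EGFR-low and 0.00389, 0.0265 and 0.239 FPKM in EGFR-high cells. COL4A4 was at 0.544, 0.428 and 0.845 FPKM in EGFR-low and 0.181, 0.189 and 0.427 FPKM in EGFR-high cells, without overlap. COL4A3 did not exceed 0.255 FPKM and COL4A4 did not exceed 0.845 FPKM in any of the 21 libraries. None of these 4 chains passed the filter in the untreated experiment.

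Among the laminin chains, the groups did not overlap for 2 of the 8 tested, but neither was called. LAMA4 was at 65.4, 42.6 and 65.0 FPKM in EGFR-low and 33.6, 24.1 and 39.8 FPKM in EGFR-high cells, a log2 fold change of 0.81 (SE 0.30, adjusted p = 0.234). With the replicate number as a block, it was called (adjusted p = 0.0137). The 3 endothelial markers found, of 4 listed, summed to 5.604 to 8.30 FPKM in EGFR-low, 2.69 to 4.26 FPKM in EGFR-high and 2.27 to 3.66 FPKM in parental libraries, nearly all of it CDH5, and their part in the LAMA4 values was not tested. LAMB2, the beta chain of kidney and synaptic basement membranes, was at 5.11, 3.93 and 5.18 FPKM in EGFR-low and 7.97, 8.45 and 11.3 FPKM in EGFR-high cells, a log2 fold change of -0.83 (SE 0.29, adjusted p = 0.203). Over all 19 members tested, 4 were higher and 1 lower without overlap, a count to be read against 20.6% of all genes tested (9.39% higher and 11.2% lower). LAMA3 and LAMB3 differed by 0.61 and 0.12 log2 units and those of the common epithelial laminin by -0.17 (LAMA5), 0.31 (LAMB1) and -0.19 (LAMC1), with SEs between 0.40 and 0.61 and none called. In replicate 2 of each untreated group, the median deviation from the group mean was lower for long than for short transcripts. The gap was 0.49 (parental), 0.23 (EGFR-low) and 0.32 log2 units (EGFR-high). The members tested were long (median 6547 bases of longest transcript against 3725 over all genes tested). With the trend with GC content and length removed, 3 chains were called instead of 2, while the calls over all 11305 genes rose from 431 to 755. With the replicate block as well, LAMB2 (-0.74, adjusted p = 0.0134) and LAMA3 (0.62, adjusted p = 0.0422) were called.

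The fibrillar and other collagens gave no call in this comparison. COL1A1 was at 3.93, 1.57 and 5.87 FPKM in EGFR-low and 1.07, 1.05 and 2.67 FPKM in EGFR-high cells, a log2 fold change of 0.83 (SE 0.35, adjusted p = 0.319), and it was called once that trend was removed (adjusted p = 0.0114). COL17A1, the transmembrane collagen of hemidesmosomes, was at 4.05, 1.35 and 1.46 FPKM against 1.00, 0.252 and 1.19 FPKM, without overlap but with an adjusted p of 0.3, which became 0.0366 with the trend removed and the replicate block. COL6A1, COL6A2, COL7A1 (anchoring fibrils), COL18A1 (the source of endostatin), COL12A1 and COL13A1 differed by between -0.65 and 0.38 log2 units, and none was called. COL8A1, a short network collagen that the filter left out, was at 1.79, 0.952 and 1.67 FPKM in EGFR-low and 0.159, 0.131 and 0.318 FPKM in EGFR-high cells. With no filter it was called, with a log2 fold change of 1.02 (adjusted p = 0.0134). COL8A1 was chosen after its values were seen.

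Against the parental line, the same 2 chains were called in EGFR-low cells, where 1.6% of all genes tested were called (0.831% higher), with log2 fold changes of 1.48 for COL4A5 (SE 0.23, adjusted p = 0.00829) and 1.13 for COL4A6 (SE 0.23, adjusted p = 0.0308). Both calls were lost without parental replicate 1 or EGFR-low replicate 1, and that of COL4A6 in 7 of the 9 fits that left out a library. The largest difference not called was that of COL12A1, 0.98 (SE 0.42, adjusted p = 0.318). EGFR-high cells differed from the parental line in 0 of 19 chains by limma, with 1 chain at an unadjusted p under 0.05 and 0.0708% of all genes tested called. The widest differences there were -0.89 for LAMA3, 0.77 for LAMB2 and 0.73 for LAMA5, with adjusted p of at least 0.507. COL4A5 differed by -0.04 (SE 0.23) and COL4A6 by 0.04 (SE 0.23) between EGFR-high and parental cells.

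**Figure D2:**
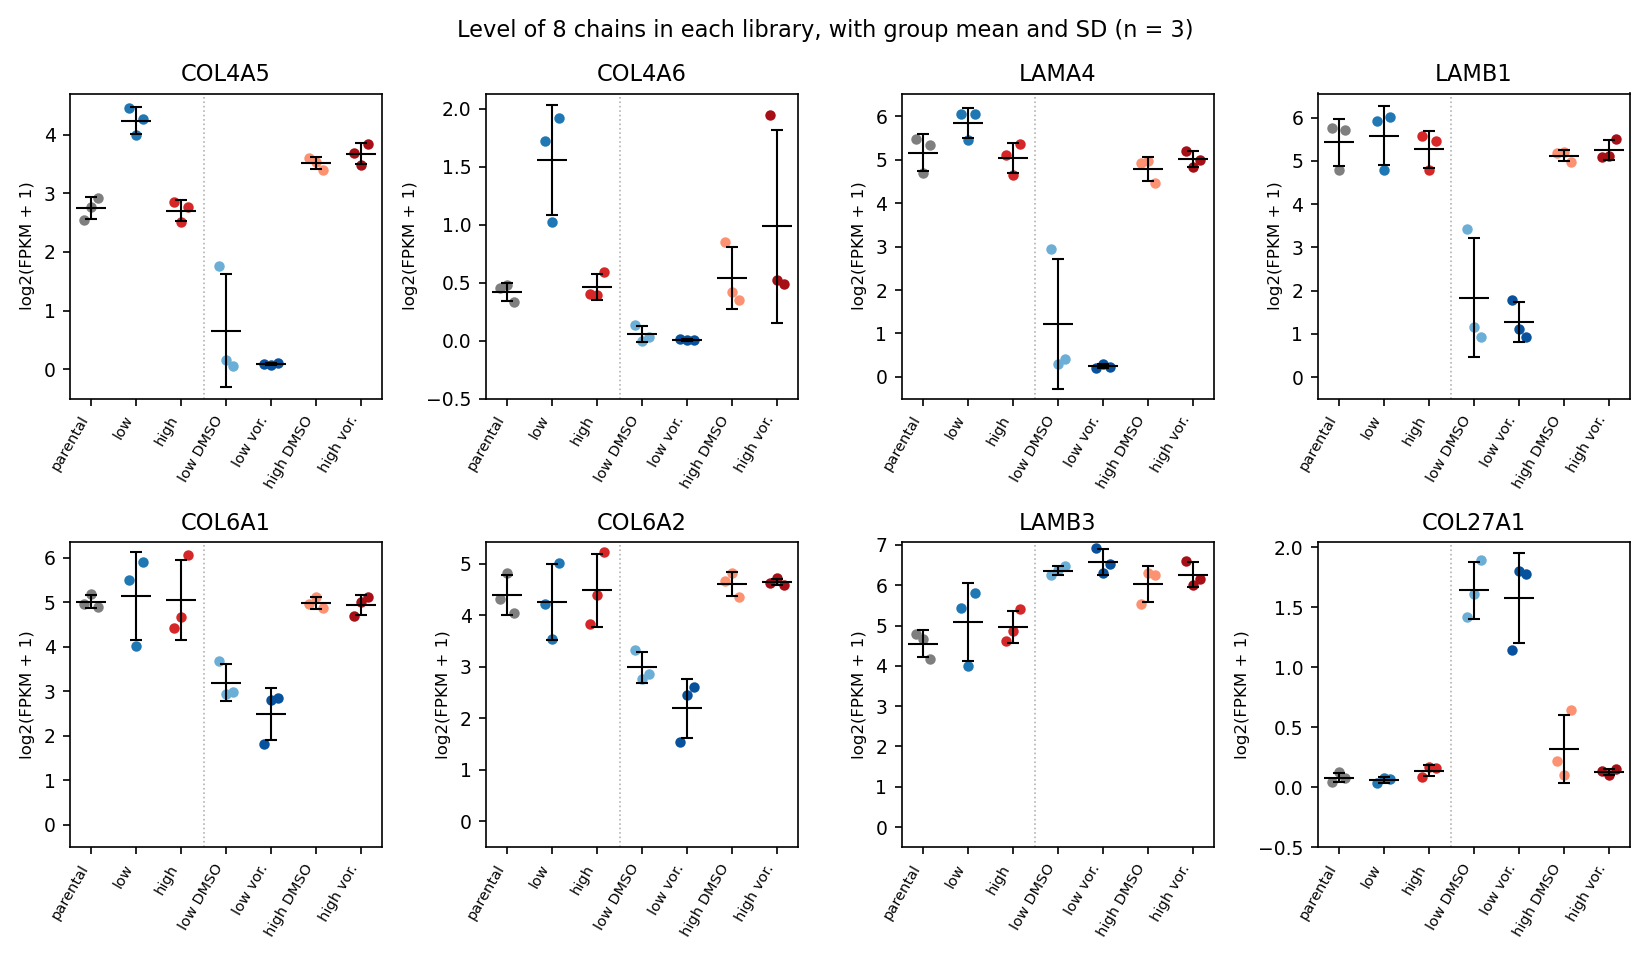
Level of 8 chains on the log2(FPKM + 1) scale in each library (points), with the mean (bar) and SD (whiskers) of each group of 3, and a dotted line between the 2 experiments. Untreated EGFR-low cells have the highest group means for COL4A5 and COL4A6, although the highest single COL4A6 value (2.86 FPKM) is in EGFR-high vorinostat. The groups labelled EGFR-low of the second experiment sit lowest for COL4A5, LAMA4, LAMB1, COL6A1 and COL6A2 but highest for COL27A1. EGFR-low DMSO replicate 1 lies above its mates for COL4A5, LAMA4 and LAMB1.

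The same contrast under DMSO asked whether the sorted populations keep these differences in culture with the solvent. Of 21 chains tested 13 were called, 2 higher and 11 lower in EGFR-low DMSO, in a comparison where 51.8% of all 12236 genes tested were called (31.1% higher and 20.7% lower). The median log2 fold change was -1.21 over the members and 0.12 over all genes. Median-of-ratios scaling shifted the median of all genes to 0.01 and the calls over all genes from 3807 higher and 2527 lower to 3207 and 3191, and with it 1 chain was called higher and 12 lower. Groups did not overlap for 15 members, 2 higher and 13 lower, against 69.3% of all genes tested (40.9% higher and 28.4% lower). Of the 13 called chains, 3 (COL12A1, COL27A1 and COL9A2) reached 1 FPKM only in EGFR-low or only in EGFR-high cells.

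Laminin chains showed the widest differences. LAMA4 was at 6.67, 0.221 and 0.322 FPKM in the libraries labelled EGFR-low DMSO and at 29.4, 30.4 and 21.2 FPKM in EGFR-high DMSO. The log2 fold change was -3.58 (SE 0.53, adjusted p = 0.000383), and it was -4.60 (adjusted p = 1.02e-08) without the 3 libraries that stood apart. LAMB1 was at 9.65, 1.23 and 0.914 FPKM against 35.3, 36.1 and 30.3 FPKM, a log2 fold change of -3.29 (SE 0.51, adjusted p = 0.000439) that became -4.15 (adjusted p = 1.53e-06) without those libraries. In both cases EGFR-low DMSO replicate 1 was above its mates and below every EGFR-high library. Of the endothelial markers, CDH5 was at 4.43, 3.95 and 3.57 FPKM in EGFR-low and 4.83, 3.25 and 3.06 FPKM in EGFR-high DMSO, while KDR was at 3.79, 3.58 and 3.57 FPKM in EGFR-low and at most 0.881 FPKM in EGFR-high DMSO. VWF stayed at or under 0.0771 FPKM, and the part of these markers in the LAMA4 values was not tested.

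LAMA4 and LAMB1 are not neighbours, and their promoters differ, as the 250 bases before their RefSeq starts show. LAMC1, which stayed high in every group, is printed beside them for comparison, and COL27A1 because it was the reverse case. Capitals again mark CCAAT and GGGCGG on either strand.

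LAMA4, chr6:112254568-112254817, minus strand: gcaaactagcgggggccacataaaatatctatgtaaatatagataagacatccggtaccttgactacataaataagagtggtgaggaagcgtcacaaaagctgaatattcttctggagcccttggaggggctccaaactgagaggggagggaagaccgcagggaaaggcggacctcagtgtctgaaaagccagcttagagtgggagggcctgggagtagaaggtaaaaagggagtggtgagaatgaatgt
LAMB1, chr7:108003162-108003411, minus strand: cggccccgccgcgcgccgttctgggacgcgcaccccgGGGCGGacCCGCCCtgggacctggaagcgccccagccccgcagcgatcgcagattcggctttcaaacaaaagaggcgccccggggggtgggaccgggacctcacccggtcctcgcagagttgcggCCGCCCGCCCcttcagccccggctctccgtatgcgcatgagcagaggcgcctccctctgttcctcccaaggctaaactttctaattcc
LAMC1, chr1:183023170-183023419, plus strand: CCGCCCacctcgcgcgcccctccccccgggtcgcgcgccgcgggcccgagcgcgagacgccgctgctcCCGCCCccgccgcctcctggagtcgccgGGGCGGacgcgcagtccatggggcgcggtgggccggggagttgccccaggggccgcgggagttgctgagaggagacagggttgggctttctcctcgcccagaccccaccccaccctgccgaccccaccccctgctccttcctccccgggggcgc
COL27A1, chr9:114155287-114155536, plus strand: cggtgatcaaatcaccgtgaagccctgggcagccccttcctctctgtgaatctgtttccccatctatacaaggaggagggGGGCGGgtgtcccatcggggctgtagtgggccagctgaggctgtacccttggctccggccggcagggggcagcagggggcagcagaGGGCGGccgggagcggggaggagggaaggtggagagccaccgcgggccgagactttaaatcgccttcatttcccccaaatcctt

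LAMB1 held 4 GC boxes, LAMC1 held 3, COL27A1 held 2 and LAMA4 held 0 in this window. The GC content was 70.4% for LAMB1, 79.6% for LAMC1, 64.4% for COL27A1 and 48.4% for LAMA4, beside 51.2% for COL4A5, 44.0% for COL4A6 and a median of 58.0% over all windows. LAMB1 held 28 CpG sites and LAMA4 held 5, against a median of 11 over all windows. Motif matches of this kind describe letters only.

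Of the hemidesmosome chains LAMA3 and LAMB3, the first was called. LAMA3 was at 8.82, 6.49 and 5.23 FPKM in EGFR-low DMSO against 9.65, 34.7 and 20.5 FPKM in EGFR-high DMSO, a log2 fold change of -1.39 (SE 0.42, adjusted p = 0.0171), and its call was lost without EGFR-low DMSO replicate 3 (or EGFR-high DMSO replicate 2). Without the 3 libraries that stood apart the difference was -1.51 (adjusted p = 0.0207). Its partner LAMB3 was not called, at 75.0, 81.9 and 88.0 FPKM in EGFR-low DMSO and 45.0, 78.5 and 75.8 FPKM in EGFR-high DMSO, a log2 fold change of 0.33 (SE 0.23, adjusted p = 0.247). LAMC1, at 35.8, 45.5 and 38.4 against 26.1, 36.4 and 34.9 FPKM, LAMB2 and LAMA5 were not called either, with log2 fold changes of 0.29, -0.13 and -0.29. LAMC1 was called without the 3 libraries that stood apart (0.43, adjusted p = 0.0497). LAMA5 was called with median-of-ratios scaling (-0.41, adjusted p = 0.046) and with the trend with GC content and length removed (-0.33, adjusted p = 0.0354).

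COL4A5 was lower in EGFR-low DMSO, where the untreated comparison had it higher. It was at 2.40, 0.111 and 0.0401 FPKM in the libraries labelled EGFR-low DMSO and 11.2, 10.5 and 9.57 FPKM in EGFR-high DMSO. The groups did not overlap, and the log2 fold change was -2.85 (SE 0.35, adjusted p = 0.000327), or -3.46 (adjusted p = 1.04e-07) without the 3 libraries that stood apart. COL4A6 failed the filter here, at 0.0976, listed at 0 and 0.0244 FPKM in EGFR-low DMSO and at 0.801, 0.336 and 0.275 FPKM in EGFR-high DMSO. COL4A1 was at 0.216, 0.122 and 0.0458 against 0.482, 1.12 and 0.548 FPKM, a log2 fold change of -0.59 that was not called (adjusted p = 0.0684). It was called without the 3 libraries (-0.71, adjusted p = 0.00644). COL18A1 was at 8.96, 16.0 and 20.0 against 11.7, 9.89 and 11.6 FPKM, and the groups overlapped.

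Of the 7 other collagen chains tested, 6 were called lower in EGFR-low DMSO. Both type VI chains moved together: COL6A1 was at 11.8, 6.65 and 6.91 FPKM against 30.0, 34.0 and 28.2 FPKM (log2 fold change -1.79, SE 0.27, adjusted p = 0.000424). COL6A2 was at 9.09, 5.78 and 6.29 FPKM against 24.3, 27.1 and 19.3 FPKM (log2 fold change -1.62, SE 0.25, adjusted p = 0.000472). COL6A3, the third chain of the type VI monomer, stayed at or under 1.59 FPKM in all 21 libraries and failed the filter. COL7A1, COL12A1, COL13A1 and COL9A2 differed by -1.52, -1.46, -1.47 and -1.21 log2 units, with adjusted p between 0.000835 and 0.0117. Without the 3 libraries that stood apart these 6 chains stayed called, at -2.08 (COL6A1), -1.92 (COL6A2), -1.95 (COL7A1), -1.77 (COL12A1), -1.73 (COL13A1) and -1.64 (COL9A2), with adjusted p of at most 0.00236. COL12A1, a fibril-associated collagen, was at 0.804, 0.0104 and 0.0369 FPKM in EGFR-low DMSO against 1.91, 3.20 and 2.23 FPKM, after 8.21, 2.62 and 7.24 FPKM in untreated EGFR-low cells. COL17A1 ran the other way, at 2.29, 4.21 and 6.52 against 0.825, 0.981 and 4.60 FPKM, where the highest EGFR-high value was that of the library that stood apart. Its log2 fold change of 0.89 (SE 0.42) was not called (adjusted p = 0.0968), and it became 1.72 (adjusted p = 0.000594) without the 3 libraries.

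Both chains called higher in EGFR-low DMSO were fibrillar. COL27A1, a short fibrillar collagen of cartilage, was at 1.67, 2.04 and 2.72 FPKM in EGFR-low DMSO and 0.166, 0.0703 and 0.559 FPKM in EGFR-high DMSO, a log2 fold change of 1.32 (SE 0.21, adjusted p = 0.000486). It did not exceed 0.121 FPKM in any untreated library. COL5A1, which nucleates type I fibrils, was at 0.934, 1.62 and 1.78 against 0.468, 0.518 and 0.709 FPKM, a log2 fold change of 0.63 (SE 0.24, adjusted p = 0.0484). The COL5A1 call was lost with median-of-ratios scaling (adjusted p = 0.0835) and with no filter (adjusted p = 0.0685). It was lost with the replicate block too (adjusted p = 0.0669), although the numbers do not pair these groups. It was also lost in 8 of 12 fits that left out a library, with adjusted p of up to 0.154. Without the 3 libraries that stood apart COL27A1 differed by 1.59 (adjusted p = 0.000225) and COL5A1 by 0.85 (adjusted p = 0.00384). COL1A1 did not differ beyond its spread (log2 fold change 0.05, SE 0.30).

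**Figure D3:**
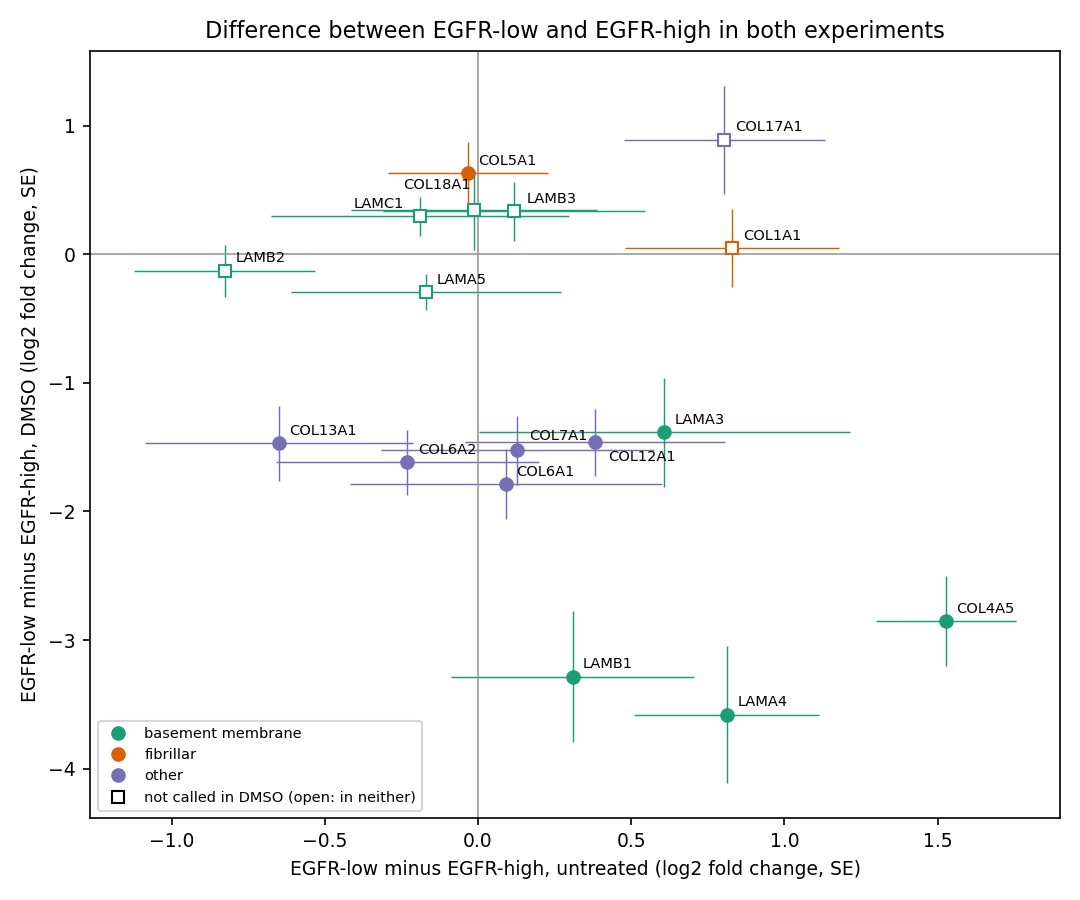
Log2 fold change of EGFR-low against EGFR-high cells, untreated (horizontal) against DMSO (vertical), for 17 of the 18 chains tested in both experiments, with SE as whiskers and the chain class as colour. Circles were called under DMSO, and open squares in neither experiment; COL4A5, LAMA4 and LAMB1 lie at the lower right, positive in untreated cells and under -2.8 with DMSO.

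Of the 18 chains tested in both experiments, 10 (55.6%) had log2 fold changes of opposite sign untreated and with DMSO, against 46.8% of the 11118 genes tested in both, and 5 were negative and 3 positive in both. COL4A5 was the 1 chain called in both, with opposite signs. The tables had been normalized separately, so the change between them was not tested, and the treatment, the time in culture and the libraries labelled EGFR-low cannot be told apart as sources. COL4A5 in EGFR-high cells was at 4.67 to 6.17 FPKM untreated and 9.57 to 11.2 FPKM with DMSO, whereas the libraries labelled EGFR-low went from at least 14.9 FPKM to at most 2.40 FPKM.

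With vorinostat, 13 of 21 chains were again called between EGFR-low and EGFR-high cells, 1 higher and 12 lower, where 59% of all genes tested were called (36.2% higher and 22.8% lower). Of these 13 chains, 4 (COL12A1, COL27A1, COL4A1 and COL9A2) had reached 1 FPKM in only 1 of the 2 kinds of cells. LAMA4 was at 0.146, 0.224 and 0.179 FPKM against 35.7, 27.4 and 31.0 FPKM, a log2 fold change of -4.77 (SE 0.53, adjusted p = 4.4e-05). COL4A5 was at 0.064, 0.0553 and 0.0814 FPKM against 11.9, 10.2 and 13.3 FPKM, with a log2 fold change of -3.58 (SE 0.35, adjusted p = 3.82e-05). LAMB1 differed by -3.97 (SE 0.51), COL6A1 by -2.45 (SE 0.27), COL6A2 by -2.45 (SE 0.25), COL12A1 by -2.39 (SE 0.26), COL7A1 by -1.98 (SE 0.27), COL13A1 by -1.69 (SE 0.29) and COL9A2 by -1.05 (SE 0.34). LAMA5, the alpha chain of the common epithelial laminin, was called here, at 7.79, 8.78 and 8.92 against 17.8, 12.1 and 15.9 FPKM (log2 fold change -0.76, SE 0.14, adjusted p = 0.000743). COL4A1 was called with overlapping groups (log2 fold change -0.68, adjusted p = 0.0347), and the call was lost when the trend with GC content and length was removed (adjusted p = 0.111). It was also lost without any 1 EGFR-low vorinostat library and without EGFR-high vorinostat replicate 2 or 3, with adjusted p of up to 0.145. The COL9A2 call was lost without EGFR-high vorinostat replicate 2 (adjusted p = 0.0691). COL27A1 was the chain called higher, at 1.21, 2.49 and 2.42 FPKM against 0.0993, 0.0724 and 0.108 FPKM (log2 fold change 1.44, SE 0.21). LAMA3 was not called (-0.97, adjusted p = 0.0668), and with the replicate block COL17A1 (adjusted p = 0.015) and LAMB2 (adjusted p = 0.0279) were called too. Without the 3 libraries that stood apart all 13 chains stayed called, with LAMA4 at -4.67, LAMB1 at -4.04, COL4A5 at -3.57, COL4A1 at -1.02, LAMA5 at -0.65 and COL27A1 at 1.45. COL17A1 (0.84, adjusted p = 0.0169) and COL5A1 (0.58, adjusted p = 0.0158) were then called as well.

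The last comparisons asked what vorinostat did to the chains within each population. In EGFR-low cells 0 of 21 chains and 0% of 12236 genes were called by limma, with 2 chains and 115 genes at an unadjusted p under 0.05. In EGFR-high cells 0 chains and 0% of genes were called, with 2 chains and 409 genes at an unadjusted p under 0.05. The difference between the responses gave 0 calls by limma as well (0% of genes), with 3 chains and 215 genes at that level. Between libraries of the same number, 592, 10 and 6 of 12236 genes differed over 2-fold in EGFR-low cells and 680, 31 and 549 in EGFR-high cells. EGFR was at 43.3, 17.7 and 19.3 FPKM in EGFR-low DMSO and 19.7, 16.1 and 18.2 FPKM with vorinostat. In EGFR-high cells it was at 83.3, 152 and 109 against 196, 101 and 207 FPKM. The study reports higher EGFR protein with vorinostat. How far the drug acted in these cultures was not tested. The widest differences in EGFR-low cells were -0.97 for LAMA4 (SE 0.53), -0.79 for COL6A2 (SE 0.25) and -0.71 for COL6A1 (SE 0.27), all with an adjusted p of 1.00. COL6A1 and COL6A2 were lower without overlap, 2 of 21 chains against 5.69% of all genes tested. In EGFR-high cells they were 0.70 for COL12A1 (SE 0.26), -0.70 for COL17A1 (SE 0.42) and 0.47 for LAMA5 (SE 0.14), with an adjusted p of 0.94. The contrast of the responses was widest for LAMA4, at -1.19 (SE 0.75), COL12A1, at -0.93 (SE 0.37), and COL6A2, at -0.83 (SE 0.36).

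In EGFR-low cells these differences lay mostly in number 1, which holds a library that stood apart. In EGFR-low cells, COL6A1 was at 11.8, 6.65 and 6.91 FPKM with DMSO and 2.52, 5.96 and 6.18 FPKM with vorinostat, so that the difference between libraries of the same number was -1.86, -0.14 and -0.14 log2 units. LAMA4 gave -2.74 in number 1, where the DMSO library stood apart, and 0.0037 and -0.17 in numbers 2 and 3. Without the 3 libraries that stood apart, the log2 fold changes in EGFR-low cells were -0.10 for LAMA4, -0.47 for COL6A1 and -0.62 for COL6A2. In EGFR-high cells COL12A1 was at 1.91, 3.20 and 2.23 FPKM with DMSO and 3.14, 4.39 and 6.60 FPKM with vorinostat. LAMA5 was higher with vorinostat in every library, at 17.8, 12.1 and 15.9 against 11.2, 10.6 and 10.1 FPKM. Its groups did not overlap, and it was 1 of 21 chains higher without overlap, against 2.25% of all genes tested.

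**Figure D4:**
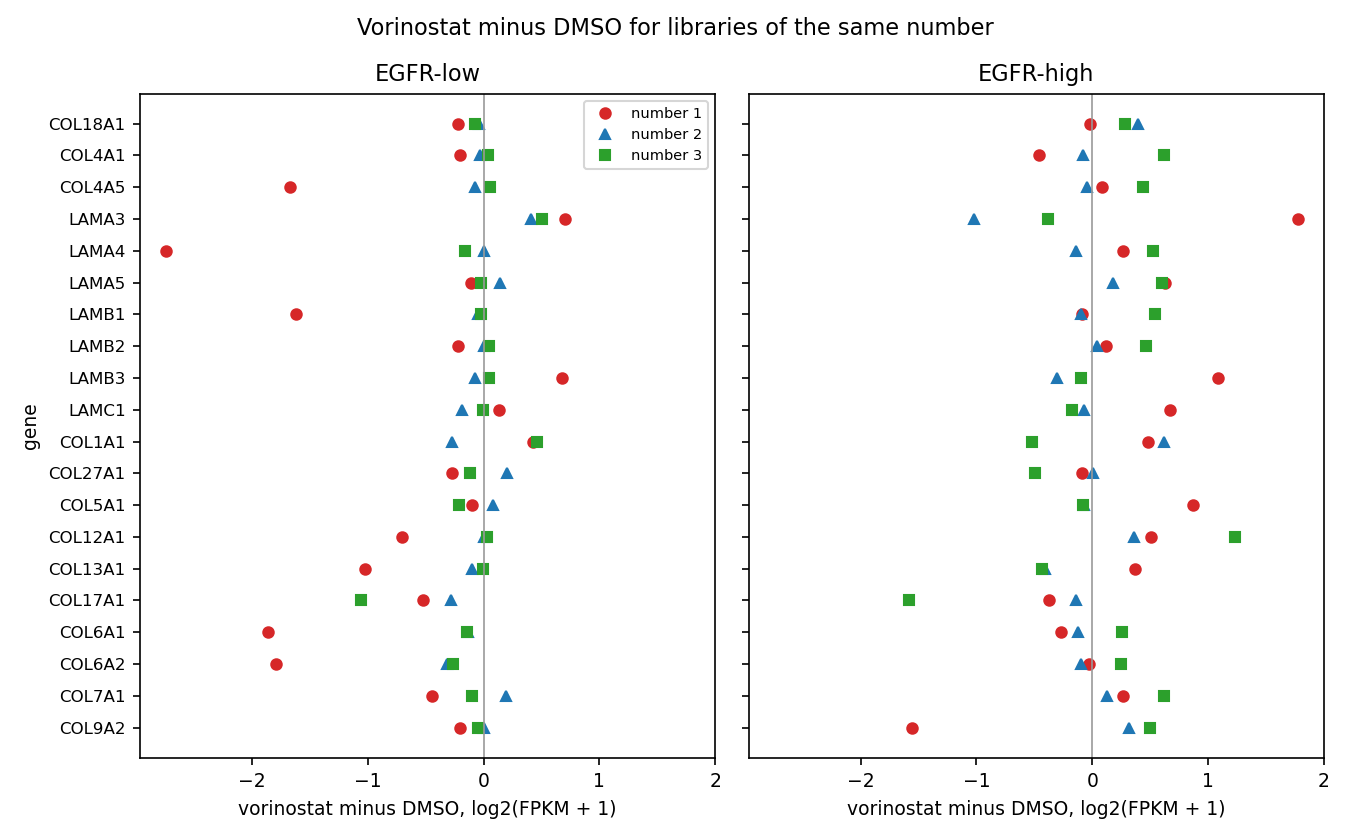
Difference of vorinostat minus DMSO on the log2(FPKM + 1) scale for libraries of the same number (points) in EGFR-low (left) and EGFR-high cells (right), for 20 of the 21 chains tested, ordered by class. In EGFR-low cells, numbers 2 and 3 lie near 0 for most chains while number 1 reaches -2.74 for LAMA4, and in EGFR-high cells the largest values are those of number 1 (LAMA3, LAMB3 and COL9A2) and number 3 (COL17A1 and COL12A1).

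The genes that modify, partner and bind these chains were counted from lists, beside 3.81% of all genes called in untreated cells (1.62% higher and 2.19% lower). Of the enzymes and chaperones of collagen modification and processing, 22 of 29 were tested in untreated cells and 3 were called between EGFR-low and EGFR-high, all lower: LOXL1 (log2 fold change -1.42, SE 0.33), CRTAP (-1.13, SE 0.24) and LOXL4 (-1.01, SE 0.19). LOXL1 and LOXL4 are lysyl oxidases that crosslink collagen, and CRTAP belongs to the prolyl 3-hydroxylation complex. Of the basement membrane partners 8 of 16 were tested and 2 were called, both lower, FBLN1 (-1.85, SE 0.34) and FREM2 (-1.23, SE 0.15). FREM2 passed the filter through the EGFR-high libraries alone, at 1.44, 1.21 and 1.64 FPKM. FBLN1, a fibulin, was at 25.9, 12.3 and 27.5 FPKM in EGFR-low and 59.6, 70.2 and 110 FPKM in EGFR-high cells. Of the collagen and laminin receptors 9 of 13 were tested and 0 were called by limma in this comparison.

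Under DMSO, where 31.1% of all genes were called higher and 20.7% lower, 7 of 24 modification genes were higher and 8 lower in the libraries labelled EGFR-low, led by LOXL1 (-3.68, SE 0.61), LOXL4 (-2.93, SE 0.54) and PCOLCE2 (-1.29, SE 0.16), an enhancer of procollagen C-proteinase. In the second experiment PCOLCE2 and LOX, both called lower, reached 1 FPKM only in EGFR-high cells. LEPREL2, called higher, reached it only in EGFR-low cells. These genes therefore passed the filter through the kind of cells where they are high. Of 8 partners, 1 was higher and 6 were lower, led by FBLN1 (-4.48, SE 0.76), PXDN (-4.00, SE 0.65), the peroxidasin that crosslinks type IV collagen, and SPARC (2.98, SE 0.66). SPARC, a collagen-binding protein, was at 14.3, 20.1 and 17.8 FPKM in EGFR-low DMSO and 0.0622, 0.139 and 9.37 FPKM in EGFR-high DMSO, the last in the library that stood apart, and at most 0.229 FPKM in untreated cells. Of 9 receptors 0 were higher and 6 lower, led by ITGA6 (-2.10, SE 0.52), ITGB4 (-1.99, SE 0.42) and ITGA2 (-1.77, SE 0.42). ITGA6 and ITGB4 form the hemidesmosome integrin that binds the laminin of LAMA3 and LAMB3. With vorinostat, beside 36.2% of all genes higher and 22.8% lower, the counts were 8 higher and 8 lower of 24, 1 and 7 of 8, and 0 and 6 of 9. By limma, 0 genes of these lists were called between vorinostat and DMSO, as 0 of all genes were.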

How the data were processed

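Polyadenylated RNA of 21 PC-9 libraries (Roche Kapa mRNA Hyper Prep) was processed by the authors to gene values. The submitters' processing notes name STAR 2.5.1b, Cufflinks 2.2.1, DESeq2 1.10.1 and build hg19. The deposited values were treated as FPKM, which is inferred from the values and goes against the word counts in their naming. The depth is unknown, so no counting interval is given. DESeq2 was not run here.

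Each of the 2 tables was fitted separately with limma 3.58.1 in R 4.3.3 (lmFit, eBayes with a trend) with log2(FPKM + 1) as the response, a mean for each group, no replicate block and Benjamini-Hochberg adjustment over the 11305 and 12236 genes that reached 1 FPKM in 3 or more libraries. Single chains were also compared by exact two-sided permutation of 3 against 3. On simulated data with 200 changed genes, the untreated fit called 18% of genes changed by 1 and 77% of those changed by 2 log2 units, and the DMSO fit 70% and 99%. The changed genes were drawn from those with a mean log2(FPKM + 1) over 3, with noise independent between libraries. These rates therefore do not describe chains at lower levels. Deviations of same-numbered libraries correlated at 0.343, 0.730 and 0.689 (untreated EGFR-low and EGFR-high), 0.353, 0.351 and 0.163 (with vorinostat) and 0.267, 0.302 and 0.329 (vorinostat and DMSO in EGFR-low), so the numbers were taken to pair these groups. The main fits still used no block, and the block is given as an alternative. Between EGFR-low and EGFR-high DMSO, number 2 correlated at -0.207, so the numbers do not pair those groups. No label gives a shared batch.

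Counts of chains cover all members, and the values of 1 member are not reported here. The members and lists were chosen with earlier results of these data known. Named with values were the called chains, the 3 widest differences per comparison, the 10 highest chains, the laminin trimers, the type IV pairs and types I, III, VI, VII, XVII and XVIII. Alternatives were a pseudocount of 0.1, no filter, median-of-ratios scaling, the replicate block, subtraction of a fitted dependence on transcript length and GC content (GENCODE 29), and leaving out each library. Leaving out 3 libraries that stood apart, or number 1 of all 4 groups, was added after seeing the data. Promoters are from RefSeq GRCh38.p14, another build than that of the files, and were not used for any value. Calculations used Python 3.11.15, numpy 2.4.6 and pandas 2.3.3, and figures matplotlib 3.10.9.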

Additional observations from a re-analysis of the deposited data

Results flagged for a closer look

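For 5 of the 23 chains with a group mean of 1 FPKM or more (21.7%), every EGFR-low library was on one side of every EGFR-high library in untreated cells and on the other side with DMSO, which also held for 6.79% of the 12365 genes at that level. The mean difference on the log2(FPKM + 1) scale, EGFR-low minus EGFR-high, was 1.53 untreated and -2.85 with DMSO for COL4A5, 1.09 and -0.48 for COL4A6, and 0.81 and -3.58 for LAMA4. It was 1.02 and -0.25 for COL8A1 and -0.078 and 1.32 for COL27A1. The difference between the experiments was not tested, since the tables were normalized separately. In untreated cells COL27A1 stayed at or under 0.121 FPKM, and with DMSO COL8A1 stayed at or under 0.266 FPKM. Groups of 3 libraries are too small for a test of single outlying samples.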

How the results depend on the processing

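Of 835 alternative values for 44 differences of single chains, 796 kept their direction and side of the threshold, 35 lost a call, 4 gained one and 0 changed direction. In untreated EGFR-low against EGFR-high cells the 2 calls became 5 with no filter on low values (adding COL8A1 and LAMA2, higher, and COL9A3, lower). They became 7 with the replicate block and the GC and length trend removed (6 higher and 1 lower), and were 3 with the replicate block alone. Leaving out each library gave 1 to 2 chains. Calls over all genes rose too, from 431 of 11305 genes to 660 of 16538 with no filter. They were 1875 with the block and the trend removed and 965 with the block alone. Against the parental line the 2 calls became 4 with the replicate block and 5 with the block and the trend removed, and 0 to 2 when a library was left out; every count of 0 came without parental replicate 1 or EGFR-low replicate 1. The numbers do not pair these groups, as 1 pair correlated at -0.092. Over all genes the calls against the parental line went from 181 to 525 with the block and 1580 with the block and the trend removed. With vorinostat the 13 calls between EGFR-low and EGFR-high became 22 with no filter, while over all genes 7222 of 12236 became 8288 of 17906. Without the 3 libraries that stood apart the chains called were 16 with DMSO and 15 with vorinostat, and without number 1 of all 4 groups 15 and 16. Leaving out each library gave 11 to 14 chains in both. Over all genes the main fits called 6334 with DMSO and 7222 with vorinostat. Without the 3 libraries these were 7179 and 7527, and without number 1 they were 7109 and 7802. The 3 tests of the vorinostat response and EGFR-high against parental gave 0 called chains under every alternative run. Without the filter more genes were tested, and the cause of the other changes was not tested. The depth behind each FPKM is unknown, and a chain under 1 FPKM could not be compared on this scale.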
